A study of Homo sapiens with 30 samples.

Results

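The genes described here are 10 members of the insulin-like growth factor (IGF) axis, out of 26253 genes in the deposited expression table. They were picked by name: the IGF-like ligands IGFL1, IGFL2 and IGFL3, the IGF-binding proteins IGFBP2, IGFBP3, IGFBP4, IGFBP6 and IGFBP7, and the receptors IGF1R and INSR. Each of the 10 was found in the table. The choice was made with the expression levels already known, so levels and ratios are given as a description, without a test.

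RWPE1 is an immortalized, non-tumorigenic human prostate epithelial line. The 4 stable lines were profiled by polyA RNA-seq: RWPE1-Vector with the empty vector, RWPE1-ERG with FLAG-tagged wild-type ERG, RWPE1-mAKT with myristoylated AKT, and RWPE1-ERG+mAKT with both. ERG is an ETS transcription factor that is switched on in many prostate cancers by gene fusion, and myristoylation holds AKT at the membrane in an active state. All 4 derive from the parental RWPE1 line by retroviral transduction, so the ectopic genes are driven by viral promoters, and all were kept in a medium with EGF and bovine pituitary extract under drug selection. Peaks came from ERG ChIP-seq in RWPE1-ERG+mAKT and in DMSO-treated VCaP, a prostate cancer line with the TMPRSS2-ERG fusion, and from ATAC-seq in RWPE1-ERG+mAKT and in the lines with ERG or mAKT alone. ERK2 ChIP-seq covered RWPE1-Vector and RWPE1-ERG, and H3K27me3 ChIP-seq covered these lines and RWPE1-ERG S96E, which carries a phosphomimetic ERG. ATAC-seq of RWPE1-Vector and ERG ChIP-seq of VCaP treated with LY294002 were not analysed here.

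As background, IGF1 and IGF2 signal through IGF1R and, for IGF2, also through INSR, both receptor tyrosine kinases. The activated receptors recruit IRS adaptors and thereby PI3K and AKT, the pathway that mAKT enters further down. IGF-binding proteins are secreted and hold IGFs away from or deliver them to the receptors, while IGFL proteins are small secreted relatives of the IGFs, one of which binds the separate receptor IGFLR1.

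Each line had 3 RNA-seq libraries, but the deposited values are 1 FPKM per gene and line, pooled by the authors, FPKM being fragment counts scaled to transcript length and library size. No spread between libraries can be given, the depth of the libraries is unknown from the table, and whether any ratio exceeds that spread was not tested here. ERG stood at 0.264 FPKM in RWPE1-Vector and 0.435 in RWPE1-mAKT, against 358 in RWPE1-ERG and 328 in RWPE1-ERG+mAKT. AKT1 stood at 58.7 FPKM in RWPE1-Vector, 64.2 in RWPE1-ERG, 156 in RWPE1-mAKT and 281 in RWPE1-ERG+mAKT. The introduced genes thus followed the line names, but AKT1 was higher in RWPE1-ERG+mAKT than in RWPE1-mAKT. Ratios below between these lines, and mAKT ratios with and without ERG, therefore also set unlike AKT1 levels side by side. The part of the AKT1 level in them was not tested. Of the 5 basal markers, including KRT5 and KRT14, all were above 1 FPKM in each line, and their summed level was 6602 FPKM in RWPE1-Vector, 2245 in RWPE1-ERG, 6662 in RWPE1-mAKT and 4995 in RWPE1-ERG+mAKT. The markers split in the double line. KRT5 and TP63 were higher there (3519 and 38.0 FPKM) than in Vector (3126 and 36.3). KRT14, ITGA6 and ITGB4 were lower (1185, 67.2 and 186 FPKM, against 2936, 125 and 379 in Vector). The summed level of 6 luminal markers ran from 1808 FPKM in RWPE1-Vector through 2064 in RWPE1-mAKT and 2534 in RWPE1-ERG+mAKT to 4570 in RWPE1-ERG. The luminal sum came almost wholly from the keratins KRT8, KRT18 and KRT19, and KLK3 was listed at 0 in each line. Among 8 stromal markers, VIM made up nearly all of the sum, at 737 FPKM in Vector, 1056 in ERG, 366 in mAKT and 288 in ERG+mAKT cells, COL1A1 stood between 1.78 and 2.18, and the other 6 were below 1. The sum of 4 endothelial markers reached at most 0.320 FPKM and that of 3 leukocyte markers at most 1.10. Keratins and VIM moved between the same lines as the IGF-axis genes below, and their part in those differences was not tested. In these bulk samples fewer cells of a type and less RNA per cell cannot be told apart.

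**Figure D1:**
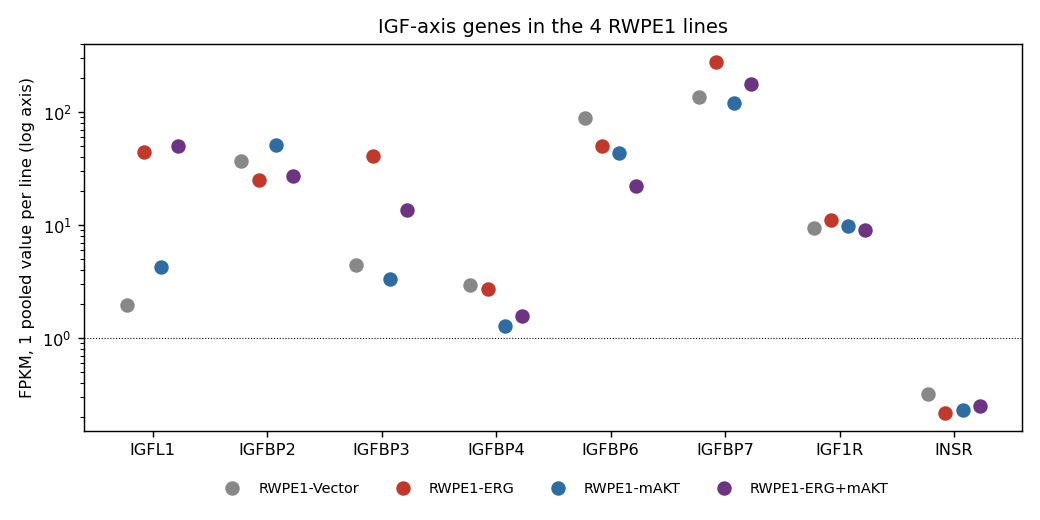
FPKM of 8 IGF-axis genes (log axis), 1 pooled value per line and therefore no error bars. IGFL1 and IGFBP3 stand apart in both ERG lines, IGFBP6 is lowest in RWPE1-ERG+mAKT, and IGF1R spans a 1.23-fold range. IGFL2 and IGFL3 are left out because they are listed at 0 in RWPE1-ERG, and the dotted line marks 1 FPKM.

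IGFL1 was the ligand with the widest range. Its level was 1.97 FPKM in RWPE1-Vector, 44.5 in RWPE1-ERG, 4.27 in RWPE1-mAKT and 50.4 in RWPE1-ERG+mAKT. Both ERG lines were high and both lines without ERG were low. IGFL1 FPKM was 22.5-fold higher in RWPE1-ERG than in RWPE1-Vector (log2 ratio 4.49). This was rank 61 from the highest among the 12669 genes with at least 1 FPKM in any line, 12483 of which had a finite ratio. Genes listed at 0 only in the line without ERG rank above all finite ratios, and genes at 0 in both lines have no rank. The later ranks were taken the same way. With mAKT in both lines the ERG ratio was 11.8-fold (log2 3.56, rank 65). mAKT alone went with a 2.16-fold higher level than Vector, and adding mAKT to ERG with a 1.13-fold higher one. On the log2 scale the ERG ratio fell by 0.94 with mAKT, the mAKT ratio being 1.11 without ERG and 0.18 with it. The table gives IGFL1 a locus of 125.7 kb that it shares with HIF3A and RNU6-66P, but HIF3A was at most 0.00598 FPKM and RNU6-66P was listed at 0.

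The other ligands were near the floor of the table. IGFL2 was 0.0298 FPKM in RWPE1-Vector, 0.298 in RWPE1-mAKT and 0.161 in RWPE1-ERG+mAKT, and was listed at 0 in RWPE1-ERG. IGFL3 was 0.0125 FPKM in RWPE1-Vector, 0.0640 in RWPE1-mAKT and 0.0721 in RWPE1-ERG+mAKT, and was also listed at 0 in RWPE1-ERG. No ratio is given for either, since 7 of the 10 members reached 1 FPKM in any line and IGFL2, IGFL3 and INSR did not. Among the IGFL ligands, IGFL1 made up between 92.2% of the summed FPKM, in RWPE1-mAKT, and 100% in RWPE1-ERG. IGFLR1, the receptor that binds IGFL1, ranged only from 2.16 FPKM in RWPE1-ERG+mAKT to 2.34 in RWPE1-mAKT.

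IGFBP3, the main carrier of IGFs in blood, was the binding protein with the widest range. Its level was 4.44 FPKM in RWPE1-Vector, 41.1 in RWPE1-ERG, 3.31 in RWPE1-mAKT and 13.7 in RWPE1-ERG+mAKT. The double line lay between the ERG line and the 2 lines without ERG. The ERG ratio was 9.26-fold (log2 3.21, rank 79) without mAKT and 4.15-fold (log2 2.05, rank 125) with mAKT, so that it fell by 1.16 on the log2 scale. RWPE1-ERG+mAKT was 3.00-fold below RWPE1-ERG, whereas RWPE1-mAKT was 1.34-fold below RWPE1-Vector.

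IGFBP7, which binds IGFs only weakly, was the most abundant member in every line per kilobase of transcript, at 135 FPKM in RWPE1-Vector, 281 in RWPE1-ERG, 122 in RWPE1-mAKT and 178 in RWPE1-ERG+mAKT. It was 2.08-fold higher in RWPE1-ERG than in RWPE1-Vector and 1.46-fold higher in RWPE1-ERG+mAKT than in RWPE1-mAKT. The antisense gene IGFBP7-AS1, whose locus the table merges with that of IGFBP7, stood at 1.65, 4.16, 1.69 and 1.77 FPKM in the same order of lines, and strand use in counting is not given in the sources used here. At these levels IGFBP7-AS1 was at most 4.16 FPKM beside at least 122 for IGFBP7. POLR2B, also on the opposite strand and in the same merged locus, overlaps the IGFBP7 span. It stood higher, at 33.9, 29.5, 33.9 and 34.3 FPKM in the same order of lines, and its part in the IGFBP7 values was not tested.

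IGFBP6, which prefers IGF2 over IGF1, was highest in RWPE1-Vector. Its level was 88.1 FPKM in RWPE1-Vector, 50.6 in RWPE1-ERG, 43.3 in RWPE1-mAKT and 22.0 in RWPE1-ERG+mAKT. Each introduced gene went with a lower level, and the double line was lowest. RWPE1-ERG was 1.74-fold and RWPE1-mAKT 2.03-fold below RWPE1-Vector, and RWPE1-ERG+mAKT was 4.00-fold below it. The log2 ratio of the double line to Vector was -2.00, beside -1.82 for the sum of the log2 ratios of the single lines.

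IGFBP2, a binding protein often raised in prostate cancer, was 37.3 FPKM in RWPE1-Vector, 25.1 in RWPE1-ERG, 51.2 in RWPE1-mAKT and 27.5 in RWPE1-ERG+mAKT. Both ERG lines were below both lines without ERG, by 1.49-fold without mAKT and by 1.86-fold with it. IGFBP4, whose cleavage by PAPPA frees IGFs, was 2.95 FPKM in RWPE1-Vector, 2.74 in RWPE1-ERG, 1.29 in RWPE1-mAKT and 1.58 in RWPE1-ERG+mAKT. Here both mAKT lines were low, by 2.29-fold in RWPE1-mAKT against Vector and by 1.74-fold in RWPE1-ERG+mAKT against RWPE1-ERG. The summed FPKM of the 5 binding proteins was 268 in RWPE1-Vector, 401 in RWPE1-ERG, 221 in RWPE1-mAKT and 243 in RWPE1-ERG+mAKT. Without IGFBP7 the sum was 133, 120, 99.1 and 64.8 FPKM in the same order, so that the double line had the lowest summed level of the other 4.

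The receptors had the narrowest ranges of the members with a value above 0 in each line. IGF1R was 9.45 FPKM in RWPE1-Vector, 11.1 in RWPE1-ERG, 9.74 in RWPE1-mAKT and 9.05 in RWPE1-ERG+mAKT, a 1.23-fold range. INSR was 0.319, 0.217, 0.232 and 0.250 FPKM in the same order, below 1 FPKM in each line. IGF1R thus made up between 96.7% and 98.1% of the summed receptor FPKM.

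In RWPE1-Vector the levels of the 7 members above 1 FPKM ran, from high to low, IGFBP7, IGFBP6, IGFBP2, IGF1R, IGFBP3, IGFBP4 and IGFL1. In RWPE1-ERG+mAKT the order was IGFBP7, IGFL1, IGFBP2, IGFBP6, IGFBP3, IGF1R and IGFBP4. IGFL1 moved from the last to the second place. Which neighbors in these orders differ beyond the spread between libraries could not be told, since none is given.

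Read against the whole table, 3 of the 7 members (IGFL1, IGFBP3 and IGFBP7) were at least 2-fold higher in RWPE1-ERG than in RWPE1-Vector (5.15% of the 12669 expressed genes), and 0 were 2-fold lower (2.18% of genes). With mAKT alone, IGFL1 was at least 2-fold higher (1.75% of genes) and IGFBP4 and IGFBP6 were 2-fold lower (1.40% of genes). Between RWPE1-ERG+mAKT and RWPE1-ERG, 0 members were higher (3.21% of genes) and IGFBP3 and IGFBP6 were lower (3.91% of genes). Between RWPE1-ERG+mAKT and RWPE1-mAKT, 2 members passed 2-fold in either direction (4.70% of genes), IGFL1 and IGFBP3, both higher. Between RWPE1-ERG+mAKT and RWPE1-Vector, IGFL1 and IGFBP3 were higher (4.20% of genes) and IGFBP6 was lower (2.04% of genes). These comparisons share lines, and the members were chosen on the same values, so nothing is read from the shares. The median log2 ratio of the 7 members was 0.24 for ERG over Vector, -0.15 for mAKT over Vector, -0.66 for ERG+mAKT over ERG and 0.29 for ERG+mAKT over mAKT, beside -0.01, 0.02, -0.05 and -0.08 over all expressed genes. With a pseudocount of 1 added to each FPKM, IGFL1 and IGFBP4 no longer passed 2-fold between mAKT and Vector.

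**Figure D2:**
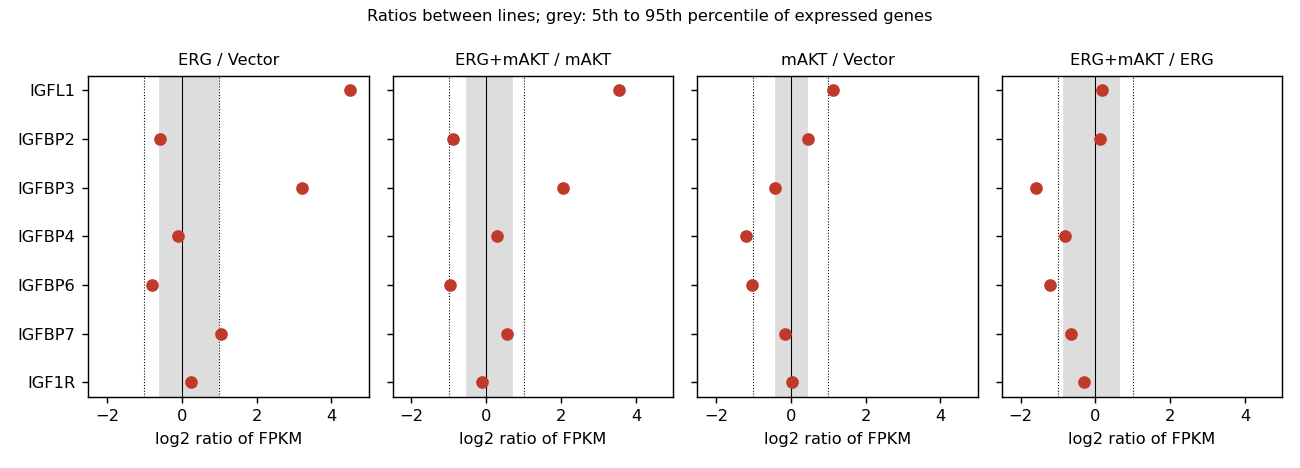
Log2 ratios of FPKM for the 7 members above 1 FPKM in 4 comparisons, 1 point per gene and no error bars. The grey band spans the 5th to 95th percentile of all expressed genes and dotted lines mark 2-fold. IGFL1 (4.49 and 3.56) and IGFBP3 (3.21 and 2.05) lie outside the band in both ERG comparisons.

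The rest of the axis was counted on a list of 40 further IGF-pathway genes, of which 27 reached 1 FPKM. IGF1, IGFBP1, IGFBP5, INS and IGFL4 were at or near 0 in each line. IGF2, a ligand of IGF1R, was 1.84 FPKM in RWPE1-Vector, 1.06 in RWPE1-ERG, 2.93 in RWPE1-mAKT and 0.277 in RWPE1-ERG+mAKT. It was lowest in the double line, 3.83-fold below RWPE1-ERG and 10.6-fold below RWPE1-mAKT. IGF2R, which clears IGF2, ranged from 14.8 to 19.4 FPKM. The median log2 ratio of the 27 genes was -0.24 for ERG over Vector, 0.009 for mAKT over Vector, 0.007 for ERG+mAKT over ERG and -0.24 for ERG+mAKT over mAKT, beside the medians over all expressed genes given above.

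In RWPE1-ERG, 3 of the 27 genes were at least 2-fold below RWPE1-Vector (2.18% of all expressed genes) and 0 were 2-fold above (5.15%). HTRA1, a secreted protease that can cleave IGF-binding proteins, was 29.4 FPKM in RWPE1-Vector, 9.74 in RWPE1-ERG, 15.5 in RWPE1-mAKT and 13.0 in RWPE1-ERG+mAKT. IRS1, the adaptor between IGF1R and PI3K, was 9.65, 4.56, 8.39 and 5.48 FPKM in the same order. PIK3R1, the PI3K regulatory subunit p85α, was 10.0, 4.67, 9.31 and 11.4 FPKM. HTRA1 and IRS1 were lower than in Vector in each line with an introduced gene, in RWPE1-mAKT by 1.89-fold and 1.15-fold. The PIK3R1 level in the double line was instead above that of Vector. Between mAKT and Vector, 0 of the 27 were 2-fold higher (1.75% of expressed genes) or 2-fold lower (1.40%). Between RWPE1-ERG+mAKT and RWPE1-ERG, PIK3R1 (2.44-fold) and PIK3R3 (2.14-fold), another PI3K regulatory subunit, were higher (3.21% of expressed genes) and IGF2 was lower (3.91%). Between RWPE1-ERG+mAKT and RWPE1-mAKT only IGF2 passed in either direction (4.70%), being lower. Between RWPE1-ERG+mAKT and Vector, 0 were higher (4.20%), and IGF2 (6.65-fold) and HTRA1 (2.26-fold) were lower (2.04%). IGF2 and PIK3R3 are named because they are the few genes counted, and were chosen after their values were seen.

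For the member of each role with the widest range on the log2(FPKM + 1) scale, the 3 genes of nearest pattern were sought by Euclidean distance over the 4 centered values on that scale, among 12668 other genes. For IGFBP3 they were MARCHF4 (distance 0.399), CST6 (0.444) and NNMT (0.500). MARCHF4, a membrane ubiquitin ligase, was 1.29, 12.4, 0.561 and 3.30 FPKM in Vector, ERG, mAKT and ERG+mAKT. CST6, a secreted cysteine protease inhibitor, was 9.51, 74.3, 7.27 and 18.5 FPKM, and NNMT, a nicotinamide methyltransferase, was 12.7, 67.1, 7.31 and 33.3 FPKM. Each of them, like IGFBP3, was highest in RWPE1-ERG and second in RWPE1-ERG+mAKT. For IGFL1 the nearest were the small RNA genes MIR637 (0.723), MIR3916 (0.735) and SNORD90 (0.817), each listed at 0 in the 2 lines without ERG. PolyA libraries measure such short genes poorly, and no gene lay as near to IGFL1 as MARCHF4 did to IGFBP3. For the nearly level IGF1R they were ATXN2 (0.00459), IDH3G (0.00899) and C8orf44 (0.0124). Over 4 values such likeness is a description.

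Peaks were searched within 20 kb of each gene, using GENCODE positions on GRCh37 (hg19). Each peak list comes from 1 library per line, for ChIP-seq pooled by the study from separate ChIPs, so no spread between replicates can be given. The RWPE1-ERG+mAKT ERG list held 9113 peaks from 10306483 ChIP and 14670664 input reads, of which 450 had a q-value of at most 0.01. It placed 8 peaks near 6 of the 10 members (IGFL1, IGFL2, IGFL3, IGFBP2, IGFBP7 and IGF1R), where 31.9% of 11455 expressed genes with a position had one. Here and below, IGFL2, IGFL3 and INSR, which stayed below 1 FPKM, count among the members but not among the expressed genes. IGFL2 and IGFL3 share 1 of the 8 peaks. None of the 8 peaks lay within 1 kb of a gene start (1.78% of genes), and their q-values ran from 0.206 to 1.

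IGFL1 (chr19:46732999-46734500, plus strand) had 1 ERG peak at chr19:46729793-46730197, with its summit 3000 bases upstream of the gene start in a stretch without an annotated gene. Its fold enrichment over input was 4.24, on a pileup of 5 reads, with a q-value of 0.206. In the whole list 31.4% of peaks were at least as enriched. The peak overlapped ATAC peaks of all 3 lines and an ERK2 peak of RWPE1-ERG cells (chr19:46730117-46730301, q-value 1), which 207 of the 9113 ERG peaks (2.27%) did. No ERK2 peak of RWPE1-Vector and no VCaP ERG peak was called there. The 201 bases around the summit are shown because this is the only ERG peak near the member with the widest range. Capitals in all sequences mark the ETS core letters CGGAAG or its variants AGGAAG, also CGGAAA and likewise AGGAAA, on either strand, sequences are given on the plus strand of GRCh37, and the second run is the 300 bases just upstream of the IGFL1 start.
IGFL1 ERG peak, chr19:46729899-46730099: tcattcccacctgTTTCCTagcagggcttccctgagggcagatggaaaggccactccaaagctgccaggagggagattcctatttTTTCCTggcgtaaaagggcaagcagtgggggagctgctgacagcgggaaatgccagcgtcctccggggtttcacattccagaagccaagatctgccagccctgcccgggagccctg
IGFL1 upstream, chr19:46732699-46732998: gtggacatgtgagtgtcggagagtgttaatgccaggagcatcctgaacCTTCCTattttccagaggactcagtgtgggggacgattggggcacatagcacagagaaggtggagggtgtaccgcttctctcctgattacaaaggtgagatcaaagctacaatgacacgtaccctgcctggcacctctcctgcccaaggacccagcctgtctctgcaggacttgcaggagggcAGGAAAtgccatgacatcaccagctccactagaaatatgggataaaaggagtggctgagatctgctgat
The peak window held 2 ETS cores, both AGGAAA on the minus strand and hence printed as TTTCCT. At least 1 such core was found in 51.5% of the 9113 windows of this list. The upstream run also held 2 cores, where 64.9% of 11455 such runs held at least 1. Neither AP-1 letters (TGAGTCA or its reverse complement TGACTCA, in 8.45% of the windows) nor the forkhead letters TGTTTAC (3.84%) occurred in the peak window.

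In the full ATAC lists the ERG, mAKT and double lines each had 4 peaks around IGFL1, and all 4 overlapped between the 3 lists. Among the 33000 peaks of lowest p-value in each list, RWPE1-ERG had 2, RWPE1-mAKT 4 and RWPE1-ERG+mAKT 2. The site under the ERG peak had the lowest fold enrichment, at 3.10 in RWPE1-ERG, 2.98 in RWPE1-mAKT and 2.60 in RWPE1-ERG+mAKT. The site about 7.5 kb upstream reached 9.57, 7.52 and 8.53 in the same order, and the site about 2.5 kb downstream 6.30, 6.98 and 3.80. By pileup the downstream site was lower than the site under the ERG peak, at 24.6, 66.3 and 15.8 against 77.4, 74.0 and 27.8. None was within 1 kb of the IGFL1 start, where 85.6%, 85.2% and 81.8% of expressed genes had a peak in the lists of the ERG, mAKT and double lines. RWPE1-mAKT, with an IGFL1 level 11.8-fold below that of the double line, had all 4 sites in its full list. The part of open chromatin in that difference was not tested.

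**Figure D3:**
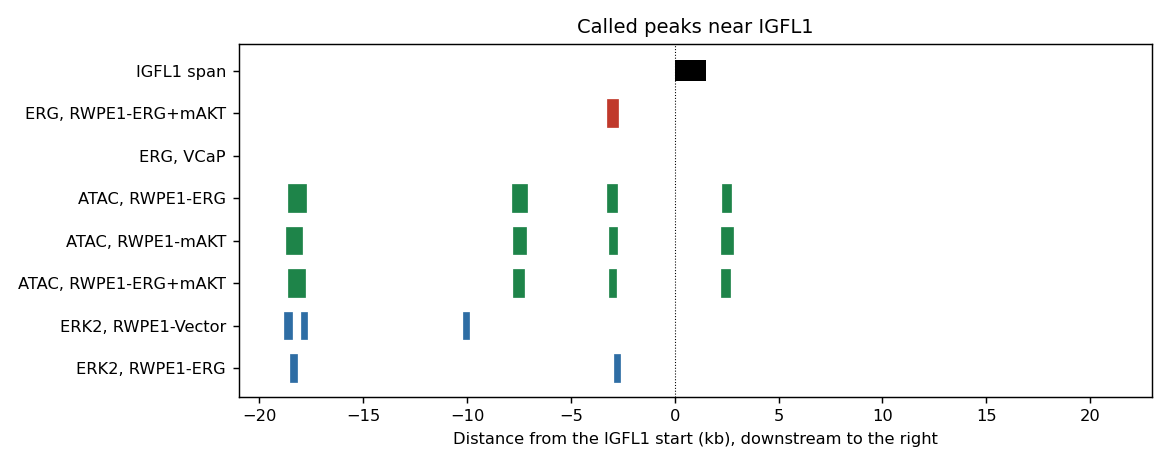
Called peaks within 20 kb of IGFL1, by distance from the gene start in kb, 1 row per peak list, with the gene span in black. The ERG peak 3.0 kb upstream lies over ATAC peaks of all 3 lines and an ERK2 peak of RWPE1-ERG, and no list has a peak at the start itself.

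IGFBP3 (chr7:45951844-45961473, minus strand) had no ERG peak near it in either list, the nearest being 330.1 kb from the gene in RWPE1-ERG+mAKT and 636 kb in VCaP. ERG ChIP-seq of RWPE1-ERG, the line with the highest IGFBP3 level, was not among the data used here, so ERG binding in that line is not known from these lists. An ATAC peak over the start of the IGFBP3 coding transcripts was called in each line, with a fold enrichment of 6.36 in RWPE1-ERG, 4.19 in RWPE1-mAKT and 6.61 in RWPE1-ERG+mAKT. A second ATAC peak about 2.6 kb upstream was called in RWPE1-ERG (4.27) and RWPE1-mAKT (3.77) and not in RWPE1-ERG+mAKT. That site held 0 ETS cores over its 245 bases, where 56.5% of equally long windows at ATAC peaks of RWPE1-ERG held at least 1.

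IGFBP7 (chr4:57896939-57976551, minus strand) had an ERG peak at chr4:57981016-57981124, 4.5 kb upstream in an intron of IGFBP7-AS1, with a fold enrichment of 3.53 and a q-value of 0.701. IGFBP2 (chr2:217497551-217529159, plus strand) had one in an intron, at chr2:217517050-217517158, with a fold enrichment of 4.24 and a q-value of 0.206. The peak between IGFL2 (chr19:46646363-46664555, plus strand) and IGFL3 (chr19:46623324-46627945, minus strand), at chr19:46642864-46642972, had a fold enrichment of 2.82 and a q-value of 1. None of these 3 overlapped an ATAC, ERK2 or VCaP ERG peak, and none held an ETS core around its summit. Over the whole list 20.8% of ERG peaks overlapped an ATAC peak of RWPE1-ERG and 18.5% one of RWPE1-ERG+mAKT. IGFBP4, IGFBP6 and INSR had no ERG peak within 20 kb in either list. For IGFBP6 the nearest ERG peak of RWPE1-ERG+mAKT was 33.0 kb away.

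IGF1R (chr15:99191768-99507759, plus strand), the longest member, had 4 ERG peaks in RWPE1-ERG+mAKT and 4 in VCaP, all in introns, and was the only member with a VCaP ERG peak (23.5% of expressed genes had one). None of the VCaP peaks lay within 1 kb of its start (4.75% of genes). Its window of 356 kb is the widest of the members, and counts rise with the window. Of the 4 VCaP peaks, 1 had a q-value below 0.01 (chr15:99319835-99320012, q-value 0.00321), and it matched no RWPE1 peak. A single site was shared: the RWPE1-ERG+mAKT peak at chr15:99214150-99214374, 22.5 kb past the start in an intron, overlapped the VCaP ERG peak at chr15:99214257-99214432 and the ERK2 peak of RWPE1-ERG at chr15:99214308-99214492. Of the 9113 ERG peaks, 114 (1.25%) overlapped a VCaP peak and 22 (0.241%) overlapped both. The 3 calls were weak, with fold enrichments of 3.53, 3.02 and 2.54 and q-values of 0.701, 0.377 and 1, and no ATAC peak was called there in any of the 3 lines. The sequence around the RWPE1-ERG+mAKT summit is shown because this is the only ERG site near a member that was called in both cell lines.
IGF1R shared site, chr15:99214187-99214387: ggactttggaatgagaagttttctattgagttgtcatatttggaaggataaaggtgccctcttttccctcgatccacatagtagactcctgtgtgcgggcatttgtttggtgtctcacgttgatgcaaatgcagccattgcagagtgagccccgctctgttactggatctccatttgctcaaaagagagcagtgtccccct
The shared site held none of the searched ETS, AP-1 or forkhead letters. In total 2 of the 8 RWPE1-ERG+mAKT peaks near members and 0 of the 4 VCaP peaks held an ETS core, beside 51.5% and 55.3% of the windows of the full lists.

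**Figure D4:**
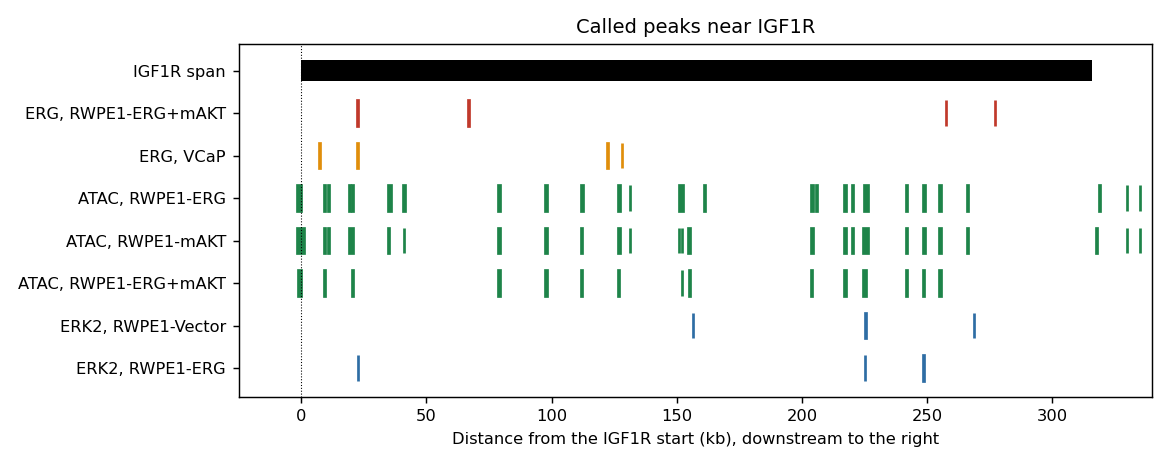
Called peaks within 20 kb of IGF1R, by distance from the gene start in kb, 1 row per peak list, with short peaks drawn wider than they are so that they can be seen. ERG peaks of RWPE1-ERG+mAKT and VCaP coincide once, 22.5 kb past the start, and the ATAC row of RWPE1-ERG+mAKT has 15 peaks beside 26 and 25 in the other lines.

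The ATAC counts around IGF1R were 26 in RWPE1-ERG, 25 in RWPE1-mAKT and 15 in RWPE1-ERG+mAKT. The lists themselves held 63354, 57999 and 42081 peaks. Among the 33000 peaks of lowest p-value in each list, the counts were 12, 11 and 13, so the lower count in the double line was not seen at equal list size. IGFBP7 had 8, 11 and 8 ATAC peaks and 5, 4 and 8 at equal list size. IGFBP2 had 7, 5 and 4, and 4, 5 and 2 at equal list size, and in the full lists only the RWPE1-ERG list had one within 1 kb of the start. At IGFBP6 (chr12:53491220-53496129, plus strand) each full list had 2, and 1, 2 and 2 were left at equal list size. The one inside the gene began 106 bases past the start in RWPE1-ERG, 459 bases past it in RWPE1-mAKT and 1327 bases past it in RWPE1-ERG+mAKT, the order in which both the IGFBP6 level and the size of the lists fell. IGFBP4 had 5, 2 and 2 ATAC peaks, IGFBP3 2, 2 and 1, INSR 6, 3 and 4, IGFL2 2, 2 and 1, and IGFL3 3, 3 and 2. At equal list size the counts were 2, 1 and 1 for IGFBP4, 1, 0 and 1 for IGFBP3, 3, 3 and 3 for INSR, 1, 1 and 1 for IGFL2, and 2, 3 and 2 for IGFL3. In the full lists all 10 members had at least 1 ATAC peak within 20 kb in each list, as had 99.2%, 99.2% and 98.5% of expressed genes.

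ERK2 peaks were called near 7 members in RWPE1-Vector (76.6% of expressed genes) and near 3 in RWPE1-ERG (32.1%). The Vector list held 41276 peaks and the ERG list 5721, so the lists differ in size as well as in line. IGFL1, IGFBP4 and IGF1R had ERK2 peaks in both. The strongest lay 29.2 kb (RWPE1-Vector) and 30.1 kb (RWPE1-ERG) past the IGFBP4 start, over ENSG00000279806 next to TNS4 (q-value 1.09e-05 in RWPE1-Vector and 1.57e-05 in RWPE1-ERG), nearer to TNS4 than to IGFBP4 (chr17:38599702-38613977, plus strand). At IGF1R, 1 site over an annotated exon at chr15:99416846-99417094 had ERK2 peaks in both lines and ATAC peaks in all 3, with a q-value of 0.0302 in RWPE1-ERG. None of the members had an ERK2 peak within 1 kb of its start, where 13.2% and 8.55% of genes had one.

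H3K27me3, the mark laid down by Polycomb complexes on silent genes, was read as the share of each gene span covered by called regions. The called regions were weak: of 492265 in the Vector line, 228233 in the ERG line and 252784 in the ERG S96E line, 29, 39 and 3413 had a q-value of at most 0.01. The lists came from 19444504, 16513053 and 26454542 ChIP reads in the same order, so they differ in depth as well as in line. The part of depth in the coverage was not tested. IGFL1 and IGFBP6 had no coverage in any of the 3 lines. IGFL1 lacked called regions over its short span of 1.5 kb at 1.97 FPKM in RWPE1-Vector and at 44.5 FPKM in RWPE1-ERG. Outside the span the lists, which are of unequal size, differed. The nearest region lay 0.17 kb from IGFL1 in RWPE1-Vector, 5.74 kb in RWPE1-ERG and 2.23 kb in RWPE1-ERG S96E. Within 20 kb, 17, 10 and 9 regions were called in the same order. IGFL2 and IGFL3, both below 1 FPKM in each line, were covered over 5.56% and 5.93% in RWPE1-Vector, 28.1% and 49.1% in RWPE1-ERG and 38.4% and 30.3% in RWPE1-ERG S96E. Of 5133 protein-coding genes below 0.1 FPKM in each line, 52.7%, 37.2% and 53.8% had at least 10% of the span covered in the lists of Vector, ERG and ERG S96E.

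IGFBP3 coverage was 18.5% in RWPE1-Vector, 5.97% in RWPE1-ERG and 34.4% in RWPE1-ERG S96E. In the 2 kb around its start the coverage was 25.2%, 0 and 10.7%. The line with the high IGFBP3 level thus had the least coverage, while the share of expressed genes with at least 10% of the span covered was lowest in RWPE1-ERG as well. RNA-seq of RWPE1-ERG S96E was not analysed here, and no spread is known for any of these shares. IGFBP4 coverage was 16.1%, 23.6% and 67.6% in the same order, IGFBP2 2.93%, 3.48% and 12.8%, and INSR (chr19:7112266-7294425, minus strand) 14.2%, 2.71% and 10.9%. IGFBP7 and IGF1R were covered over 2.81% and 2.39% in RWPE1-Vector and had no coverage in the other 2 lines. At least 10% of the span was covered in 3 of the 10 members in RWPE1-Vector (6.95% of expressed genes), 3 in RWPE1-ERG (2.16%) and 6 in RWPE1-ERG S96E (5.39%). In RWPE1-ERG the 3 were IGFL2, IGFL3 and IGFBP4. IGFL2, IGFL3 and INSR count among the 10 members but not among the expressed genes. The shares for protein-coding genes below 0.1 FPKM in each line are given above.

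**Figure D5:**
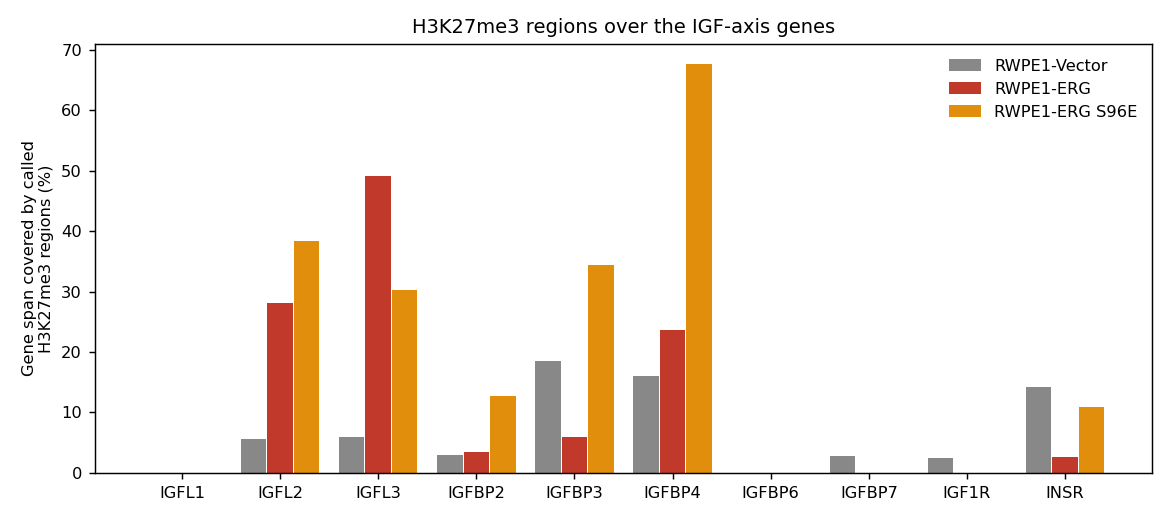
Percent of each gene span covered by called H3K27me3 regions in the Vector, ERG and ERG S96E lines, 1 library per line and no error bars. IGFL1 and IGFBP6 are at 0 in each line, IGFBP3 falls from 18.5% to 5.97% between RWPE1-Vector and RWPE1-ERG, and IGFBP4 is highest in RWPE1-ERG S96E at 67.6%.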

How the data were processed

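RNA-seq, ChIP-seq and ATAC-seq files of RWPE1 lines and VCaP were used as deposited. The authors aligned RNA-seq reads with TopHat2 and made FPKM values with Cuffdiff, 1 per gene and line, pooled over 3 libraries. The deposited fold change, test score, p-value and q-value columns of that table hold the study's own comparisons and were not used. The authors aligned ChIP-seq and ATAC-seq reads to hg19 with Bowtie2 and called peaks with MACS2 (2.1.2 or 2.2.7.1 in the headers that name a version). The deposited peak lists give a pileup signal, a fold enrichment, −log10 p-values and −log10 q-values. Of the 12 lists, 2 were left out because their contents went against their labels. Read totals are known for the lists whose headers give them.

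Ratios were taken between FPKM values without a pseudocount, on genes with at least 1 FPKM in any line, and 2-fold was the threshold. All but 2 gene symbols have 6 rows in the table, and the 10 members each had 1 value per line. Gene spans came from GENCODE 44 on GRCh37, which placed 11455 of the 12669 expressed genes, and a peak counted when it overlapped the span with 20 kb to either side. Sequence letters were searched within 100 bases of ERG summits. Python 3.11.15, pandas 2.3.3, pysam 0.24.0 and samtools 1.23.1 were used, and the interval and sequence functions were tested on simulated data. With 1 value per line no test was run. The members and lists were chosen with earlier results of these data known. Named genes were the members, ERG, AKT1, pathway genes with at least 5 FPKM and past 2-fold along the ERG by mAKT square, and the 3 nearest patterns per role. Alternatives changed the pseudocount, centering, fold, filter, distance, peak threshold and list size. A further marker gene and a further sequence are not reported here.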

Additional observations from a re-analysis of the deposited data

Results flagged for a closer look

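For 3 effects of small size the sign differed between the 2 backgrounds, and the difference was not tested, since each line has 1 pooled value. The log2 ERG ratio of IGFBP4 was -0.10 without mAKT and 0.29 with mAKT. The log2 ERG ratio of IGF1R was 0.24 without mAKT and -0.11 with mAKT. The log2 mAKT ratio of IGF1R was 0.044 without ERG and -0.30 with ERG.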

How the results depend on the processing

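No paired analysis was possible because the deposited FPKM values are pooled over the numbered libraries, and for the same reason no library could be left out. The FPKM ratios of the 7 expressed members changed by less than 1.5-fold under a pseudocount of 1 or 0.1 and under centering, in 35 of 35 ratios each. The log2 ratio of IGF1R between ERG+mAKT and Vector changed sign on centering, from -0.063 to 0.0040. With a pseudocount of 1, the members past 2-fold between mAKT and Vector went from 3 to 1. The pathway genes went from 3 to 1 between ERG and Vector and from 3 to 1 between ERG+mAKT and ERG. The share of expressed genes past 2-fold was not counted with that pseudocount. At 3-fold, 0 members passed between mAKT and Vector (1.87% of expressed genes) and 0 between ERG+mAKT and ERG (3.21%). At 1.5-fold, 4 members passed between ERG+mAKT and ERG (15.8% of expressed genes) and 4 between ERG+mAKT and mAKT (10.2%). Without the filter on low FPKM, the share of genes past 2-fold lay between 10.1% (mAKT over Vector) and 15.1% (ERG over Vector). At a q-value of at most 0.01, 0 members kept an ERG peak of RWPE1-ERG+mAKT, where 450 of 9113 peaks passed. For ERK2, 1 member kept a peak in RWPE1-Vector (306 of 41276 peaks passed) and 1 in RWPE1-ERG (178 of 5721). For H3K27me3, 0 kept a region in RWPE1-Vector, RWPE1-ERG or RWPE1-ERG S96E, where 29, 39 and 3413 regions passed. The share of expressed genes was not counted at this q-value, so nothing is read from these counts. At least 10% of the span was covered by H3K27me3 in 3 members in RWPE1-Vector (6.95% of expressed genes) and 3 in RWPE1-ERG (2.16%). Any coverage was seen in 8 and 6 members, for which the share of genes was not counted. Distances of 5 and 50 kb, the window around the gene start, the table's own locus (added after seeing the data) and equal ATAC list sizes changed the count of members with a peak by at most 1.5 times. The members that no longer passed with a pseudocount of 1 between mAKT and Vector were IGFL1 (4.27 and 1.97 FPKM) and IGFBP4 (1.29 and 2.95). IGFBP6 (43.3 and 88.1 FPKM) still passed. For the pseudocount the cause was not tested. The ERG peak of IGFL1 rests on a pileup of 5 reads.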
